A study of Homo sapiens with 32 samples.

Results

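Thymidylate synthase and dUTPase decide how much uracil a cell builds into its DNA, and the genes examined here are 9 that make, spend or guard thymidylate or handle the drugs aimed at it: TYMS, DUT, TK1, TYMP, RRM1, RRM2, SHMT1, SLC19A1 and FPGS. They were chosen by name as 9 of 20033 protein-coding genes of the GENCODE release 44 annotation, and each was read as a window, its gene body with 20 kb on each side. Measured was uracil in DNA: genomic DNA was fragmented, fragments that hold uracil were pulled down with a catalytically inactive uracil-DNA glycosylase sensor and sequenced beside the unenriched input, and regions with a high log2 ratio of enriched over input coverage were listed. These lists give the covered share (percent of the known bases of a window that lie in listed regions) and the log2 enrichment of the regions.

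The cells were HCT116, a human colorectal carcinoma line that lacks DNA mismatch repair (MMR), and K562, a human leukaemia line. The non-treated HCT116 groups were WT, which carries no transgene, NT_UGI, which stably expresses the uracil-DNA glycosylase inhibitor UGI with EGFP after retroviral transduction and cell sorting, and NT_UGI_MMR, the same in a subline in which an added chromosome 3 restores MMR. The drug-treated groups were 5FdUR_UGI and 5FdUR_UGI_MMR (5-fluoro-2'-deoxyuridine, 20 µM, 48 h) and RTX_UGI and RTX_UGI_MMR (raltitrexed, 100 nM, 48 h). The authors state that the sensor also binds fluorouracil, and that 5FdUR leads to its direct incorporation into DNA. Regions called uracil-enriched in the 5FdUR libraries may therefore hold either base, and these could not be told apart. All drug-treated cells expressed UGI, so drug without UGI was not measured, and the MMR-proficient cells differ from the others by a whole chromosome and not by a single gene. The comparisons by drug pooled MMR-deficient and MMR-proficient libraries and took no account of MMR status. The SD of a drug in them therefore also holds the difference between these cells. The non-treated side had WT and NT_UGI beside NT_UGI_MMR, so its balance of MMR status differed from that of each drug. Each HCT116 group had 2 replicate libraries and K562 had 1, which gives 15 libraries, and 17 further samples of input or mock pull-down had no region list here. Regions covered 10.9 to 11.3% of the known genome in the 6 non-treated libraries, 17.1 to 17.8% in the 4 5FdUR libraries and 17.2 to 18.9% in the 4 RTX libraries. The lowest log2 value listed was 0.25 to 0.33, 0.13 to 0.25 and 0.25 to 0.27 in these classes, so the RTX thresholds overlapped the non-treated ones and 3 of the 4 5FdUR thresholds lay under them. The authors tuned each threshold so that replicates and merged data of a condition had listed regions of about equal total length. The genome share of a library is therefore partly set by that choice and is no measure of its uracil content, and the part of the thresholds in the differences between conditions cannot be told apart from the treatment. A covered share of 0 says that no region passed that threshold, not that uracil was absent.

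Thymidylate synthase (TYMS) methylates dUMP to dTMP, with a folate as the carbon donor. Both drugs act on it: 5FdUR is phosphorylated to a form that traps the enzyme, and RTX is a folate analogue that occupies its folate site. When dTMP runs short, dUTP accumulates and DNA polymerases, which hardly tell dUTP from dTTP, build uracil into DNA. dUTPase (DUT) removes dUTP and returns dUMP. Thymidine kinase (TK1) and thymidine phosphorylase (TYMP) use and break down thymidine, ribonucleotide reductase (subunits RRM1 and RRM2) makes deoxynucleotides, serine hydroxymethyltransferase (SHMT1) supplies one-carbon folate, and the reduced folate carrier (SLC19A1) and folylpolyglutamate synthase (FPGS) take up and retain folates and RTX. Whether these loci gain uracil says nothing of how much of each enzyme was made, which was not measured.

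The 9 loci did not share one drug order. TYMS, DUT, SHMT1 and SLC19A1 had their higher mean covered share in the 5FdUR libraries, whereas TK1, TYMP, RRM2 and FPGS had theirs in the RTX libraries, and RRM1 had none in any drug-treated library. Over all protein-coding genes 38.9% had the higher mean under 5FdUR and 59.3% under RTX, so 4 of 9 each way is near the background, and the direct comparison of the drugs called none of the 9. In the non-treated libraries none of the windows exceeded 6.30%. The plot of covered share by library shows all 15 values for each gene.

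**Figure D1:**
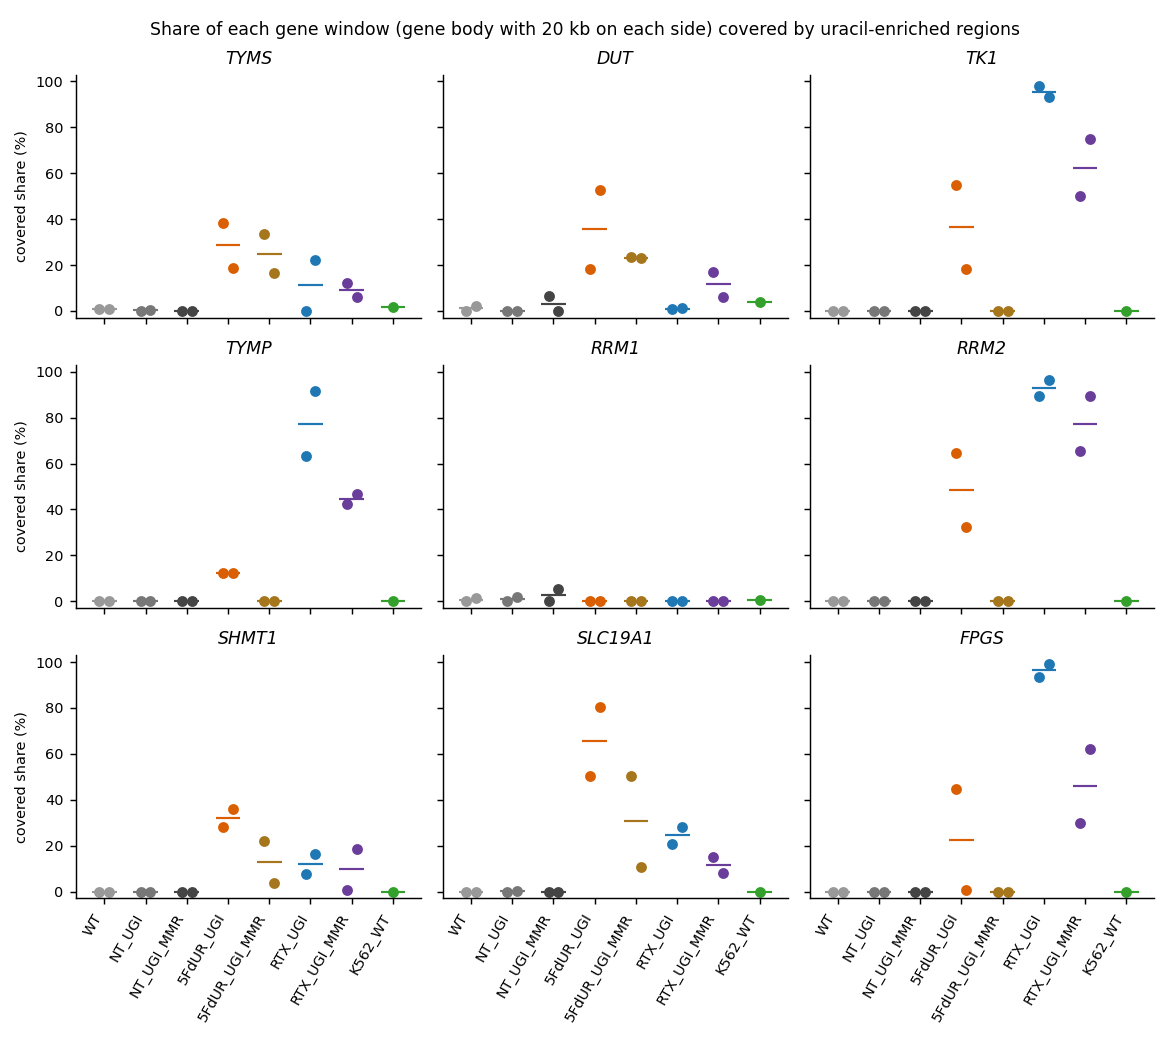
Covered share (percent of the known bases of gene body with 20 kb on each side) of the 9 genes in each library, where points are replicate libraries and horizontal bars the mean of a group. TYMS, DUT, SHMT1 and SLC19A1 are highest in 5FdUR libraries, TK1, TYMP, RRM2 and FPGS in RTX libraries, and RRM1 stays at 0 in all 8 drug-treated libraries.

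For 3 of the genes the sequence just upstream of the start site is given, because the start sites of TYMS and SLC19A1 lay inside uracil-enriched regions of 3 of 4 5FdUR libraries and of no RTX library, and RRM1 was free of regions under both drugs. The sequences are from RefSeq (GRCh38.p14), written 5′ to 3′ on the strand of the gene. Capitals mark matches on either strand to the E2F sites TTTGGCGC, TTTCCCGC, TTTGCCGC and TTTCGCGC, to the CCAAT box CCAAT or to the GC box GGGCGG. TYMS (250 bases, chr18:657403-657652, plus strand) ends at the base before the start site, RRM1 (250 bases, chr11:4094435-4094684, plus strand) ends before a RefSeq start that lies 114 bases upstream of the GENCODE one, and SLC19A1 (219 bases, chr21:45542472-45542690, minus strand) stops 31 bases short of the start site, where an exon of another transcript begins.
TYMS: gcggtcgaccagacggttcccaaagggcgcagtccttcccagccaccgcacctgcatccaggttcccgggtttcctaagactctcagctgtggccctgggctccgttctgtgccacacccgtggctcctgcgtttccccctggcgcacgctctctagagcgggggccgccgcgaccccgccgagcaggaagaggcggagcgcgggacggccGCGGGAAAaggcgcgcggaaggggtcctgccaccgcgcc
SLC19A1: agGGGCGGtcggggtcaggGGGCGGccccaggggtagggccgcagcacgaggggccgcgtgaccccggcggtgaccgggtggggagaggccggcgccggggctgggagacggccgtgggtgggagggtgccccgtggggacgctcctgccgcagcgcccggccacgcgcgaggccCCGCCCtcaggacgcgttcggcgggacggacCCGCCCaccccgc
RRM1: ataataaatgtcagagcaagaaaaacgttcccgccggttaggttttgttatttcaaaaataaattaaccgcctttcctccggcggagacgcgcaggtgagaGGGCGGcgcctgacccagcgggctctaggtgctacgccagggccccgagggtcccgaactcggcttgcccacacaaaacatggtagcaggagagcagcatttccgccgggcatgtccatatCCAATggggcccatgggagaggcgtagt
Of the 9 genes, TYMS alone held one of these E2F sites in the 250 bases before its start site, against 2.79% of 35116 RefSeq promoters. A CCAAT box was present in 6 of the 9 and a GC box in 7 of the 9, against 32.01% and 42.6% of all promoters. TYMS held neither CCAAT nor GC box by these letters, SLC19A1 held 4 GC boxes, and RRM1 held 1 CCAAT box and 1 GC box.

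TYMS lies on chromosome 18 (657653 to 673578, plus strand, 15.9 kb), with ENOSF1 and the antisense RNA TYMSOS overlapping its gene body. Its covered share was 38.4% and 18.7% in the 5FdUR_UGI libraries and 33.4% and 16.6% in the 5FdUR_UGI_MMR libraries. It was 0% and 22.4% in RTX_UGI and 12.2% and 5.90% in RTX_UGI_MMR. The 6 non-treated libraries had a lowest value of 0%, a median of 0.179% and a highest of 0.894%. Every 5FdUR library thus lay above every non-treated one, while RTX_UGI replicate 1 had no region in the window at all. Against the non-treated libraries the share was higher by 26.4 percentage points under 5FdUR (26.8% ± 10.7 SD, n = 4, against 0.328% ± 0.398 SD, n = 6, two-sided exact permutation test, adjusted p = 0.0124). Under RTX the difference was 9.79 percentage points (10.1% ± 9.58 SD, n = 4, exact permutation adjusted p = 0.0412). This RTX call was lost when any 1 of the 6 non-treated libraries was left out (exact permutation adjusted p = 0.0584 to 0.0586), without RTX_UGI replicate 2 (5.69 percentage points), RTX_UGI_MMR replicate 1 (9.10) or RTX_UGI_MMR replicate 2 (11.2), and over the gene body alone (1.41). In the merged files the RTX difference was 1.73 percentage points. The 5FdUR call was lost with only regions of log2 0.34 or more (8.58 percentage points, exact permutation adjusted p = 0.315), where 0% of all genes were called. It was also lost without the WT libraries (26.7 percentage points, exact permutation adjusted p = 0.0689), where again 0% of all genes were called. In the 5FdUR libraries the gene body itself was covered to 30.8 to 42.4%, and the start site lay in a region of 3.0, 6.4 or 5.1 kb in 3 libraries and 0.648 kb from one in the other. Under RTX the gene body was covered to 5.65% in RTX_UGI replicate 2 and to 0% in the other 3 libraries, and most of what regions there were lay in the flanks. A start site inside a region in at least 3 of 4 5FdUR libraries and in no RTX library was found for 6.51% of all protein-coding genes, and for TYMS and SLC19A1 among the 9.

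DUT lies on chromosome 15 (48331011 to 48343373, plus strand, 12.4 kb) in the AT-richest of the 9 windows (GC content 40.6%). Its covered share was 18.1% and 52.9% in 5FdUR_UGI and 23.3% and 23.1% in 5FdUR_UGI_MMR. It was 0.764% and 1.09% in RTX_UGI and 16.997% and 6.11% in RTX_UGI_MMR, and in the non-treated libraries it had a median of 0% and a highest value of 6.30%. The 5FdUR libraries lay above all others, and the RTX and non-treated libraries overlapped. The share was higher by 27.9 percentage points under 5FdUR than in non-treated cells (29.4% ± 15.9 SD, n = 4, against 1.43% ± 2.56 SD, n = 6, exact permutation adjusted p = 0.0124). The RTX difference was 4.81 percentage points (6.24% ± 7.58 SD, n = 4) and did not pass (exact permutation adjusted p = 0.197). The regions lay mostly beside the gene: in the 5FdUR libraries 27.05 to 53.95% of the upstream flank was covered, while the gene body was at 0% in both 5FdUR_UGI_MMR libraries, at 1.54% in 5FdUR_UGI replicate 1 and at 50.9% in replicate 2. These were weakly enriched regions, with a mean log2 value of 0.17 to 0.28, and with only regions of log2 0.34 or more the DUT difference under 5FdUR turned to -0.828 percentage points.

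The folate genes with the same drug order were SHMT1 and SLC19A1. SHMT1, on chromosome 17 (18327860 to 18363563, minus strand), was covered to 28.0% and 36.1% in 5FdUR_UGI, 22.01% and 3.83% in 5FdUR_UGI_MMR, 7.53% and 16.3% in RTX_UGI and 0.847% and 18.4% in RTX_UGI_MMR. No non-treated library had a region there, so all 8 drug-treated libraries lay above all 6 non-treated ones. The share was higher under 5FdUR by 22.5 percentage points (SD 13.7, n = 4, exact permutation adjusted p = 0.0124) and under RTX by 10.8 (SD 8.11, n = 4, exact permutation adjusted p = 0.00661). Both come from the same unadjusted p of 0.00476 (exact permutation), the smallest that 4 against 6 libraries allow. Every adjusted p of 0.0124 under 5FdUR or 0.00661 under RTX given here stands for that limit and does not rank the drugs or genes. With only regions of log2 0.34 or more, or only regions of 5 kb or more, the RTX difference was 0.126 percentage points and the call was lost (exact permutation adjusted p = 0.169 and 0.183), and in the merged files it was 1.74. The 5FdUR call was lost in the same 2 settings, at 10.5 and 12.2 percentage points (exact permutation adjusted p = 0.136 and 0.0902). Genes of its GC class, those with the same GC content when cut to a whole percent, had a median covered share of 24.1% in the 5FdUR libraries and 68.8% in the RTX libraries. SHMT1 itself had means of 22.5% and 10.8%. Across 500 kb on each side of the start site the RTX libraries covered 31.5 to 58.1%, and the plot of surroundings shows the lower stretch at the gene.

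SLC19A1, the reduced folate carrier, lies on chromosome 21 (45493572 to 45573365, minus strand) and shares part of its annotated body with COL18A1. Its covered share was 50.5% and 80.6% in 5FdUR_UGI, 50.3% and 10.8% in 5FdUR_UGI_MMR, 20.7% and 28.2% in RTX_UGI and 14.9% and 8.01% in RTX_UGI_MMR. Among the non-treated libraries only NT_UGI replicate 2 had a region, with 0.250% covered. All 8 drug-treated libraries were above all 6 non-treated ones, and the drugs overlapped only through 5FdUR_UGI_MMR replicate 2. The share was higher under 5FdUR by 48.0 percentage points (48.0% ± 28.6 SD, n = 4, exact permutation adjusted p = 0.0124) and under RTX by 17.9 (17.96% ± 8.57 SD, n = 4, exact permutation adjusted p = 0.00661). The 5FdUR call was lost with only regions of log2 0.34 or more (25.7 percentage points, exact permutation adjusted p = 0.136). It was also lost with only regions of 5 kb or more (35.3 percentage points, exact permutation adjusted p = 0.0902). The position of the regions separated the drugs further. Exons of the canonical transcript, of which the longest has 3.58 of 4.99 kb, were covered to 85.4% and 100% in 5FdUR_UGI and 96.4% and 86.2% in 5FdUR_UGI_MMR, and to 0% in all 4 RTX libraries and all 6 non-treated libraries. RTX regions lay in the upstream flank, covered to 16.0 to 76.5%, and in the gene body, covered to 20.1% and 23.1% in RTX_UGI and 11.2% and 8.02% in RTX_UGI_MMR, and the downstream flank held none. The canonical start site, at 45542440, lies inside the annotated body. Part of that body is therefore upstream of the start site, and the upstream flank begins only past 45573365. These positions were described and not tested.

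**Figure D2:**
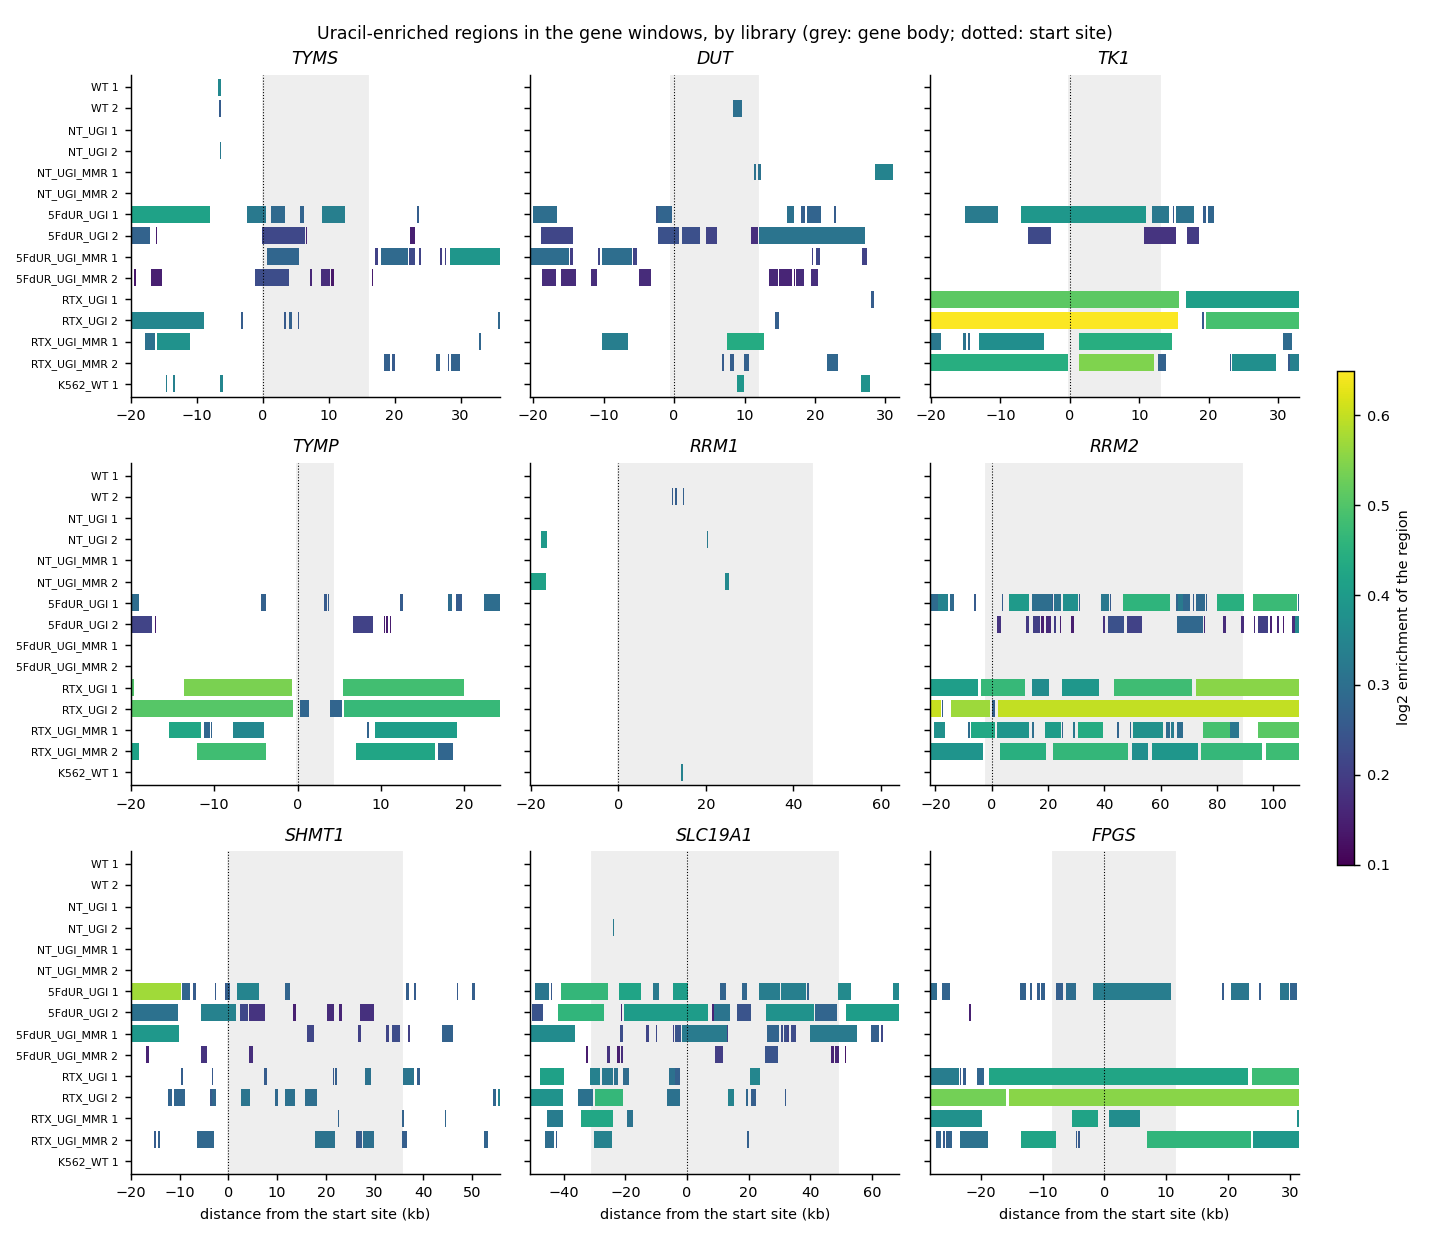
Uracil-enriched regions in the window of each gene, with 1 line per library; the x axis is the distance from the start site in kb in the direction of transcription, grey is the gene body, and colour gives the log2 enrichment of the region. RTX regions are long and strongly enriched over TK1, RRM2 and FPGS, 5FdUR regions cover the start of TYMS and SLC19A1, and the RRM1 window is empty in all 8 drug-treated libraries.

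The thymidine kinase gene TK1 on chromosome 17 (78174091 to 78187233, minus strand) had the opposite drug order. It was covered to 54.9% and 18.3% in 5FdUR_UGI, to 0% in both 5FdUR_UGI_MMR libraries, to 98.1% and 93.0% in RTX_UGI and to 49.9% and 75.0% in RTX_UGI_MMR. No non-treated library had a region in this window. RTX raised the share by 79.0 percentage points (SD 21.8, n = 4, exact permutation adjusted p = 0.00661), with all 4 libraries above all 6. The mean under 5FdUR was 18.3% (SD 25.9, n = 4) and its difference did not pass (exact permutation adjusted p = 0.169). Only the 5FdUR_UGI libraries were above 0% here, which fixes the unadjusted p at 0.133 (exact permutation) whatever their shares. The same holds for the 5FdUR differences of TYMP, RRM2 and FPGS. The start site of TK1 lay in regions of 41.6 and 170.8 kb in the RTX_UGI libraries. Regions of that length are longer than the 13.1 kb gene and covered all of it.

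TYMP, whose enzyme splits thymidine and 5FdUR into base and sugar, lies on chromosome 22 (50525752 to 50530032, minus strand) and overlaps SCO2 and ODF3B. It was covered to 12.2% and 12.5% in 5FdUR_UGI, 0% in both 5FdUR_UGI_MMR libraries, 63.1% and 91.6% in RTX_UGI and 42.2% and 46.8% in RTX_UGI_MMR. No non-treated library had a region. The RTX difference was 60.9 percentage points (SD 22.3, n = 4, exact permutation adjusted p = 0.00661) and the 5FdUR difference was 6.16 (SD 7.12, n = 4, exact permutation adjusted p = 0.169). Almost all of this lay beside the 4.28 kb gene: the gene body was at 0% in 3 RTX libraries and at 33.8% in RTX_UGI replicate 2, against 50.5 to 98.5% of the downstream flank.

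The ribonucleotide reductase genes gave the widest contrast among the 9. RRM2 encodes the small subunit, which carries the radical the reaction needs. It lies on chromosome 2 (10120698 to 10211725, plus strand), with a 91.0 kb annotated body. It was covered to 64.4% and 32.2% in 5FdUR_UGI, 0% in both 5FdUR_UGI_MMR libraries, 89.2% and 96.6% in RTX_UGI and 65.3% and 89.3% in RTX_UGI_MMR. With no region in the non-treated libraries, the RTX difference was 85.1 percentage points (SD 13.7, n = 4, exact permutation adjusted p = 0.00661). This was the highest difference of the 9 genes and lay at percentile 88.7 of the RTX differences of all genes. The 5FdUR difference of 24.2 (SD 30.8, n = 4) did not pass (exact permutation adjusted p = 0.169). Exons of the canonical transcript were covered to 80.7 to 100% under RTX and to 72.1%, 4.11%, 0% and 0% under 5FdUR.

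RRM1 encodes the large subunit, which binds the substrates, and lies on chromosome 11 (4094707 to 4138932, plus strand, 44.2 kb). Its window was at 0% in all 4 5FdUR libraries and all 4 RTX libraries. In non-treated cells it was at 0% and 1.19% in WT, 0% and 1.78% in NT_UGI and 0% and 5.34% in NT_UGI_MMR. The 3 non-treated libraries with a region were replicate 2 of each group, and the others were at the 0% of the drug-treated ones. The non-treated mean was 1.38% (SD 2.08, n = 6), and the difference of -1.38 percentage points did not pass (exact permutation adjusted p = 0.0785). Genes of its GC class had a median covered share of 19.3% under 5FdUR and 28.3% under RTX. A window at 0% in all 8 drug-treated libraries was found for 340 protein-coding genes, 1.70% of them, and one that also had a region in a non-treated library for 0.619%. The nearest region to the RRM1 start site was 148.6 to 312.9 kb away under 5FdUR and 112.8 to 129.2 kb away under RTX. Across 500 kb on each side, 7.95 to 10.6% was covered under 5FdUR and 17.6 to 20.6% under RTX, so the empty stretch ends within this span. With flanks of 100 kb the difference was -1.45 percentage points and passed (exact permutation adjusted p = 0.0263).

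FPGS, whose enzyme adds glutamates to folates and to RTX and so holds them in the cell, lies on chromosome 9 (127794597 to 127814327, plus strand). It was covered to 44.5% and 0.502% in 5FdUR_UGI, 0% in both 5FdUR_UGI_MMR libraries, 93.5% and 99.3% in RTX_UGI and 30.0% and 62.0% in RTX_UGI_MMR. No non-treated library had a region, and the nearest one lay 492.7 to 729.5 kb from the start site in those libraries. The RTX difference was 71.2 percentage points (SD 31.98, n = 4, exact permutation adjusted p = 0.00661) and the 5FdUR difference was 11.3 (SD 22.2, n = 4, exact permutation adjusted p = 0.169). The 5FdUR mean rests on 1 library, 5FdUR_UGI replicate 1.

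Counted over the 9 genes, 7 were called higher in the 8 drug-treated than in the 6 non-treated libraries at an adjusted p under 0.05 and 0 were called lower, against 51.5% and 9.59% of all protein-coding genes, and the exceptions were RRM1 and FPGS (exact permutation adjusted p = 0.0566 for FPGS). The 7 differences ran from 16.4 percentage points at DUT to 54.6 at RRM2. For 2 of the 9, SHMT1 and SLC19A1, the lowest of the drug-treated libraries exceeded the highest of the non-treated ones, against 24.6% of all genes. Under 5FdUR 4 of 9 were called higher and 0 lower, with 36.1% and 8.66% of all genes. Under RTX 7 of 9 were called higher and 0 lower, with 66.9% and 14.7% of all genes. Read against these shares, the counts show nothing particular to the 9 genes. Their median difference was 32.96 percentage points for both drugs together against 27.6 over all genes, 22.5 against 13.2 for 5FdUR and 17.9 against 33.9 for RTX. The 5FdUR and RTX comparisons share their 6 non-treated libraries. The call for both drugs together also rests on the number of libraries: 3 of 9 genes were called when any 1 of the 6 non-treated libraries was left out (36.5 to 36.8% of all genes), 4 without 5FdUR_UGI replicate 1 or without RTX_UGI_MMR replicate 1 (41.4% of all genes in each case), and 0 without both WT libraries (22.1% of all genes), when 8 against 4 libraries remained. Another setting kept only regions whose listed log2 value was 0.34 or more, which is above the threshold of every library. Regions were kept or dropped whole, as drawn at the threshold of each library, so it is no common threshold for the libraries. Of the 9, 0 were then called higher for both drugs together (5.64% of all genes, with 12.9% called lower). For 5FdUR 0 were called higher (0% of all genes, with 5372 genes at an unadjusted p under 0.05), and for RTX 5 (57.6% of all genes).

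Set directly against each other, 5FdUR and RTX gave no call over 20033 genes (0% at an adjusted p under 0.05 in either direction), since 4 against 4 libraries allow no p under 0.0286, which became 0.0731 after adjustment. At an unadjusted p under 0.05 there were 7827 genes. DUT was 1 of 9 with every 5FdUR library above every RTX library, against 10.7% of all genes, and its difference was 23.1 percentage points (exact permutation p = 0.0286). TYMP and RRM2 were 2 of 9 with every 5FdUR library below every RTX library, against 28.4% of all genes, with differences of -54.8 and -60.9 percentage points (exact permutation p = 0.0286 for each). The other differences, 5FdUR minus RTX, were 30.1 for SLC19A1, 16.7 for TYMS and 11.7 for SHMT1, and -60.7 for TK1 and -59.9 for FPGS. A higher mean under 5FdUR than under RTX was found for 4 of the 9 and for 38.9% of all genes. Median covered shares of the GC class, 5FdUR then RTX, were 17.2 and 60.8% for TK1 and FPGS and 13.3 and 51.2% for TYMP. For RRM2 and SHMT1 they were 24.1 and 68.8%, and for SLC19A1 14.2 and 54.1%. For TYMS they were 23.6 and 37.4%, for DUT 14.9 and 16.4% and for RRM1 19.3 and 28.3%. The plot of mean shares under both drugs places the genes among all others.

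**Figure D3:**
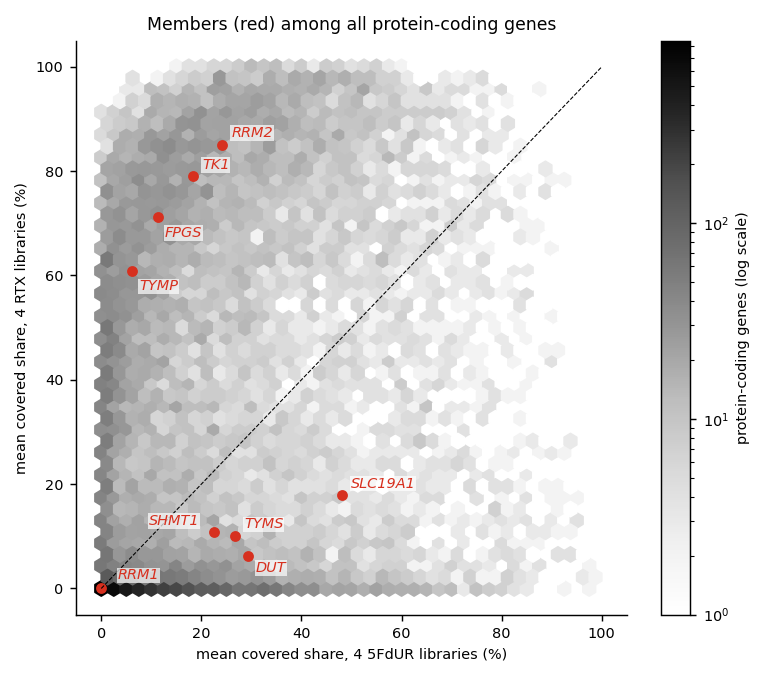
Mean covered share over the 4 5FdUR libraries (x, percent) and the 4 RTX libraries (y, percent); grey hexagons count all 20033 protein-coding genes on a log scale, red points are the 9 genes, and the dashed line marks equal shares. TK1, TYMP, RRM2 and FPGS lie above the line, TYMS, DUT, SHMT1 and SLC19A1 under it, and RRM1 at the origin.

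The log2 enrichment is given as a description, since thresholds differ between libraries, and it did not follow the drug order of the covered share at every gene. In the RTX libraries the mean log2 value of covered bases was 0.40 to 0.60 for TK1, 0.42 to 0.59 for RRM2, 0.39 to 0.51 for TYMP and 0.38 to 0.55 for FPGS, above the 5FdUR range at TK1, RRM2, TYMP and FPGS. At the other genes the drugs overlapped. The median over libraries with a region was 0.27 under 5FdUR and 0.34 under RTX at TYMS, 0.35 and 0.36 at SLC19A1, 0.27 and 0.27 at DUT, and 0.30 and 0.29 at SHMT1. In the 5FdUR libraries the highest value was in SHMT1, 0.43 in 5FdUR_UGI replicate 1, and the lowest was 0.15, in FPGS in 5FdUR_UGI replicate 2. Replicate 2 of both 5FdUR groups had the lowest thresholds, 0.14 and 0.13 against 0.25 and 0.20. In every window with regions in both replicates, the mean of replicate 2 was the lower one. In 5FdUR_UGI the pairs ran from 0.39 against 0.22 at RRM2 to 0.38 against 0.38 at SLC19A1.

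**Figure D4:**
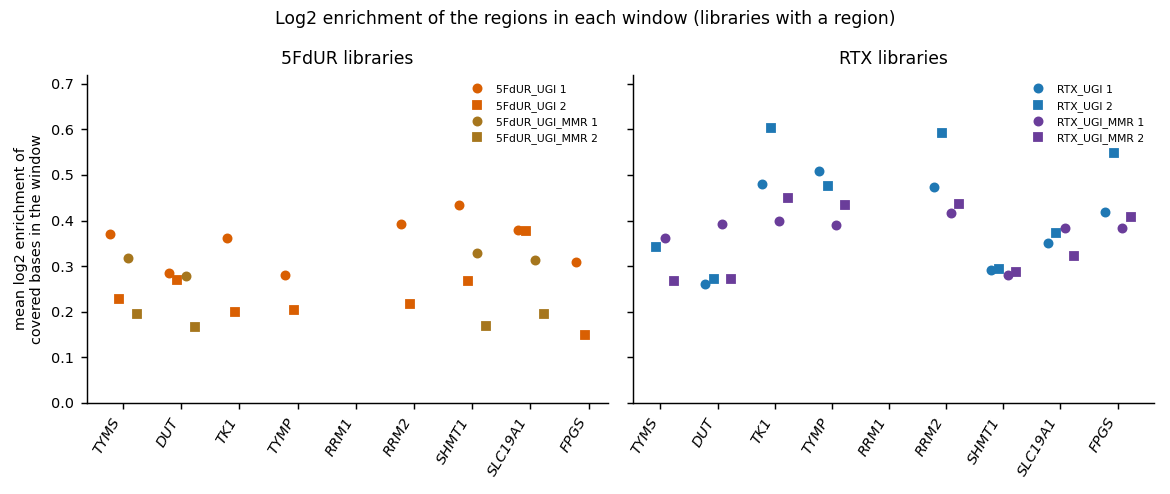
Mean log2 enrichment of the covered bases in each window, in the 5FdUR libraries (left) and RTX libraries (right); each point is 1 library, circles are replicate 1 and squares replicate 2, and libraries without a region in the window have no point. TK1, TYMP, RRM2 and FPGS reach 0.38 or more in every RTX library, and RRM1 has no point.

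The surroundings followed the windows at some genes and not at others. Within 500 kb on each side of the start site the RTX libraries covered on average 89.85% around RRM2, 64.3% around FPGS and 63.9% around TK1, but 9.49% around TYMS and 6.17% around DUT. The 5FdUR libraries covered 49.5% around SLC19A1, 19.8% around TYMS and 12.1% around DUT. At SHMT1 the order was the reverse of that in the window, with 43.998% under RTX and 15.5% under 5FdUR. The RTX libraries covered 40.8% around SLC19A1, and RRM1, with an empty window, had 9.51% under 5FdUR and 19.0% under RTX around it. The non-treated libraries covered 8.13 to 9.58% around DUT and 0 to 5.23% around the other 8 genes. DUT was thus the one of the 9 whose wider surroundings were covered more in non-treated cells than under RTX on average.

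MMR status gave no call for any gene. The 6 MMR-proficient and 6 MMR-deficient UGI-expressing libraries were compared with labels permuted within each treatment. Of the 20033 genes 0% passed at an adjusted p under 0.05, with 1428 genes at an unadjusted p under 0.05. TK1, TYMP, RRM2, SHMT1 and FPGS were at 0% in all NT_UGI and NT_UGI_MMR libraries. At such genes this test allowed no p under 0.0556, the value at TK1, TYMP and FPGS (exact permutation), so it could not give a call there. The difference, MMR-proficient minus MMR-deficient, was -24.3 percentage points at FPGS, -23.2 at TK1, -21.3 at RRM2, -16.0 at SLC19A1 and -15.1 at TYMP, and the lowest adjusted p among the 9 was 0.201 (exact permutation). The median over all genes was -3.72 percentage points and over the 9 it was -15.1. Genes of the same GC class had a median of -18.8 for TK1 and FPGS, -16.0 for RRM2 and SHMT1, -19.9 for SLC19A1 and -19.2 for TYMP. It was -2.51 for the class of TYMS, 1.33 for that of DUT and 0 for that of RRM1. The part of GC content in these differences was not tested. TK1, TYMP, RRM2 and FPGS, and also RRM1, were at 0% in both 5FdUR_UGI_MMR libraries, which held for 21.9% of all genes. DUT and TYMS differed little by MMR status, at 0.483 and -1.95 percentage points, and the sign of both changed when single libraries were left out.

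In K562 the share was 4.01% at DUT, 1.61% at TYMS and 0.475% at RRM1, and the other 6 windows were at 0%. The DUT and RRM1 values lay within the range of the non-treated HCT116 libraries and the TYMS value above it, with 1 library and no test. No start site of the 9 genes lay in a region in K562 or in a non-treated HCT116 library. In single drug-treated libraries 0 to 5 of the 9 start sites did, against 15.5 to 39.1% of all start sites.

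The windows whose covered share over the 14 HCT116 libraries was most like that of TYMS, among genes on other chromosomes, were RNASE6 (Pearson r = 0.97), CCK (0.96) and SLC6A13 (0.95). For DUT they were MOS (r = 0.97), ATP6V0E2 (0.96) and CCDC127 (0.95). The libraries share treatments, so these values are a description of like patterns across the same 14 libraries.

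Of 24 other genes of nucleotide and folate metabolism, 17 were called higher and 2 lower in drug-treated than in non-treated libraries, 9 and 0 under 5FdUR, and 19 and 4 under RTX, by the same exact permutation test. Of all protein-coding genes 51.5% and 9.59%, 36.1% and 8.66%, and 66.9% and 14.7% were called higher and lower in these comparisons. Their median difference was 31.2 percentage points for both drugs together, 14.1 for 5FdUR and 49.3 for RTX. The highest were FOLR1, a folate receptor, which differed by 70.7 percentage points (exact permutation adjusted p = 0.00469), SLC46A1, the proton-coupled folate transporter, by 58.8 (exact permutation adjusted p = 0.00548), and MTHFD2, a mitochondrial folate enzyme, by 57.2 (exact permutation adjusted p = 0.0270). The lowest were RRM2B, the p53-inducible small subunit of ribonucleotide reductase, at -12.1 (4.16% ± 8.33 SD, n = 8, against 16.2% ± 5.16 SD, n = 6, exact permutation adjusted p = 0.0295), DCK, deoxycytidine kinase, at -9.11 (3.78% against 12.9%, exact permutation adjusted p = 0.0116) and GGH, the hydrolase that removes the glutamates FPGS adds, at -4.43 (exact permutation adjusted p = 0.0806). By single drug, RRM2B differed by -16.2 percentage points under RTX (exact permutation adjusted p = 0.00661), its whole non-treated mean, so its window was empty there. Under 5FdUR it differed by -7.89 (exact permutation adjusted p = 0.209) and did not pass. DCK did not pass under 5FdUR either (-8.49, exact permutation adjusted p = 0.0522). Of the 3 ribonucleotide reductase genes, RRM2 was thus higher under RTX, RRM2B was empty under RTX, and RRM1 was at 0% in all drug-treated libraries. RRM2B and DCK lie in windows of 40.2 and 39.1% GC, below DUT and RRM1 (40.6 and 42.0%), and RRM2 in one of 50.2%. Over all genes, the median covered share under RTX was 16.4% in the GC class of DUT and 68.8% in that of RRM2, and the part of GC content in these differences was not tested.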

How the data were processed

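The deposited files list regions per library with a log2 value. Per the labels and the methods of the study, the authors aligned reads with BWA 0.7.17-r1194 to GRCh38, filtered them with SAMtools 1.9-50 and Picard, scaled coverage to 1x genome content with deepTools 3.2.1, took the log2 ratio of enriched over input and kept regions above a threshold tuned for each library to give about equal total length within a condition. The region files hold no read counts, so no counting interval was computed. Replicates are described as independent biological samples.

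Regions were intersected base by base with windows of GENCODE release 44 on the same build (Python 3.11.15, numpy 2.4.6, pandas 2.3.3, matplotlib 3.10.9), over all 20033 protein-coding genes, and the routine was tested on simulated data. Known bases are those that are not N. Group differences of the covered share were tested by two-sided exact permutation over libraries and adjusted by Benjamini-Hochberg over all genes, at a threshold of 0.05. The drug comparisons were permuted without regard to MMR status. With 4 against 6 libraries this test allows no unadjusted p under 0.00476. The text names all 9 genes, the 3 genes most like TYMS and DUT, the 3 highest and 3 lowest of 24 other pathway genes, and genes overlapping a member as annotation. Genes and lists were chosen with earlier results of these data known. Alternatives were flanks of 0 and 100 kb, shares relative to the genome share, regions of log2 0.34 or more or of 5 kb or more, summed log2, a replicate block, leaving out libraries, and the 7 merged files.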

Additional observations from a re-analysis of the deposited data

Results flagged for a closer look

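Values of 5 libraries stood far from the rest of their group, out of 27 groups of libraries screened. The screen compares the gap to the nearest value with the range of the group. It flags about 1 group in 20 by chance if values are normally distributed. Shares with many zeros are not, so that rate does not hold here. A single value above 0 among zeros is always flagged, and a group at 0 throughout never is. At DUT, 5FdUR_UGI replicate 2 had a covered share of 52.9%, above the other 5FdUR libraries, and NT_UGI_MMR replicate 1 had 6.30% among the non-treated libraries. At RRM1, NT_UGI_MMR replicate 2 had 5.34% among the non-treated libraries. At SLC19A1, NT_UGI replicate 2 had 0.250% where the other 5 non-treated libraries were at 0%. At FPGS, 5FdUR_UGI replicate 1 had 44.5% where the other 3 5FdUR libraries had at most 0.502%.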

How the results depend on the processing

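Of the 9 genes, 7 were called higher in drug-treated than in non-treated libraries (51.5% of all genes). This count was 4 over gene bodies without flanks (33.4% of all genes) and 0 with regions of log2 0.34 or more (5.64%). It was 1 with regions of 5 kb or more (26.8%) and 0 without the WT libraries (22.1%). With shares relative to the genome share of the library the count was 6 (49.2%), and DUT lost its call (exact permutation adjusted p = 0.0555). With summed log2 the count was 6 (45.9%), and TK1 lost its call (exact permutation adjusted p = 0.0581). Over the merged files it was 0 (0%), where 4 against 3 files allow only 35 splits. When single libraries were left out it ran from 3 to 8 (36.5 to 56.0%). With flanks of 100 kb 1 gene, RRM1, was called lower (9.08% of all genes). The 5FdUR count of 4 was 7 with flanks of 100 kb (62.5% of all genes) and 0 with regions of log2 0.34 or more (0%). It was 1 with regions of 5 kb or more (17.6%). Without the WT libraries it was 0 (0%), where 4 against 4 libraries allow 70 splits. It stayed at 4 whichever single library was left out (32.7 to 44.7%). The RTX count of 7 ran from 5 to 8 over all settings (51.6 to 71.8% of all genes). It ran from 6 to 7 when single libraries were left out (64.4 to 65.5%). The cause of these changes was not tested beyond the number of splits.

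Signs turned for DUT under 5FdUR against non-treated (-0.828 percentage points) and against RTX (-2.48) with regions of log2 0.34 or more, and for SHMT1 under 5FdUR against RTX with flanks of 100 kb (-1.02). In the MMR comparison they turned for DUT over gene bodies (-0.181) and with regions of 5 kb or more (-1.37) and for RRM1 with flanks of 100 kb (-0.130). When single libraries were left out the MMR difference ran from -5.68 to 1.78 at TYMS, from -5.31 to 6.28 at DUT and from -0.297 to 1.48 at RRM1.

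Replicate numbers showed no pairing shared by all conditions. Over 21 pairs of conditions, the correlation of replicate differences ran from -0.307 to 0.201, with 2 above 0.1. These 2 were the pairs within a drug, 0.128 between the 5FdUR groups and 0.201 between the RTX groups. Whether replicate numbers pair the libraries within a drug was not tested. With replicate number as a block the counts were 6, 4 and 7 for both drugs, 5FdUR and RTX. The shares of all genes were 45.1%, 35.6% and 66.8%. TYMP lost its call for both drugs together (exact permutation adjusted p = 0.0564). The files do not give the reads behind each region, and the threshold set for each library limits which low enrichments can be seen.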
